A study of Mus musculus with 4 samples.

Results

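Messenger RNA of 8 transcription factor genes of cerebellar granule neurons (CGNs) was followed in the cerebellum of mice lacking the histone demethylase KDM6B in the granule lineage. The genes were taken by name, as ZIC and NFI family genes known as regulators of granule neuron maturation: Zic1, Zic2, Zic4 and Zic5, and Nfia, Nfib, Nfic and Nfix. They are 8 of the 55341 genes in each deposited library and 8 of the 16617 genes with enough counts to be tested. The libraries were made from poly(A) RNA of cerebellar tissue at postnatal day 14. There were 2 from WT mice, which were Kdm6b fl/fl without Cre, and 2 from Kdm6b-cKO mice, which were Kdm6b fl/fl and carried Atoh1-Cre. Both genotypes thus carried the loxP-flanked alleles, the animals were littermates, and each library came from 1 mouse. Cre under Atoh1 control acts in granule neuron precursors and their progeny, while RNA was taken from the whole tissue, so cells that never expressed Cre were also measured. In such bulk RNA, fewer cells of a type and less RNA per cell cannot be told apart.

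ZIC proteins are zinc finger transcription factors related to the GLI family, and granule neurons keep making them from the precursor stage into adulthood. NFI proteins bind a palindromic DNA site as dimers and are known for timing late steps of granule neuron maturation, such as axon and dendrite growth and the onset of the GABA receptor subunit gene Gabra6. KDM6B erases H3K27me3, a methyl mark on histone H3 that keeps genes silent. The study asked how this mark is redistributed as CGNs mature, and examined ZIC binding at promoters that lose it.

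Depth and library make-up bear on every value below. Counts in genes ranged from 8811849 to 9892363 per library, and the members drew from 1019 counts for Zic5 in WT 1 to 14645 for Zic1 in cKO 1. Kdm6b itself was at 154 and 154 CPM (counts scaled to library size) in the WT mice and 127 and 119 CPM in cKO mice, a log2 fold change of −0.33 (SE 0.076, edgeR quasi-likelihood test with Benjamini-Hochberg adjustment over all tested genes, adjusted p = 0.0162). Leaving out any 1 library ended this call (adjusted p from 0.111 to 0.493), and most of the counted Kdm6b exons lie outside the loxP sites. WT 1 stood apart in its sex-linked RNA: Xist was at 0.431 CPM there and at 1359 to 1599 CPM in the other libraries, and 4 Y-linked genes summed to 233 CPM there and to at most 0.672 CPM elsewhere. cKO 1 stood apart in choroid plexus RNA, with Ttr at 609 CPM against 0.108 to 13.9 CPM in the other libraries. Each member is therefore given also without each library.

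The members lie at 6 places of the genome (GRCm38, GENCODE M21 gene models). Zic1 (chr9:91358058-91365810, minus strand) and Zic4 (chr9:91362413-91389348, plus strand) lie on opposite strands, and the 5′ parts of their gene models overlap by 3398 bp. Zic5 (chr14:122456795-122465677, minus strand) and Zic2 (chr14:122475435-122479852, plus strand) are arranged head to head, with 9758 bp between their 5′ ends. The NFI genes are much longer and do not lie in such pairs: Nfib (chr4:82290173-82705750, minus strand), Nfia (chr4:97772734-98118874, plus strand), Nfic (chr10:81396186-81455635, minus strand) and Nfix (chr8:84699876-84800344, minus strand). Exons of Zic1 and Zic4 share 60 bp on opposite strands, which is 1.05% of the Zic1 and 0.581% of the Zic4 exon length. The largest exon overlap of any member with another gene was that of Zic4 with Gm37477, 468 bp or 4.53% of its exon length. Where the strand of a read was not used, reads from such overlaps cannot be told apart.

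Members of a family resemble each other, so the longest identical coding stretches bear on whether a read could be given to the wrong gene. The longest stretch of the NFI genes, and a run found in all 4 of them, are shown 5′ to 3′ on the coding strand. They were read from the GENCODE transcripts, with the position in the first gene named. Capitals mark the run found in all 4 NFI genes. The bases of the other run were not compared with Nfia and Nfib.
Nfic and Nfix, chr10:81420686-81420717: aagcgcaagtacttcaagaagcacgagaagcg
Nfib, Nfia, Nfic and Nfix, chr4:82498693-82498709: TGGTTCAACCTGCAGGC
The longest run within either family was 42 bases, between Zic1 and Zic4, against reads of 150 bases. The 2 longest runs among the NFI genes were the 32 bases of Nfic and Nfix and the 21 bases of Nfib and Nfix.

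Upstream sequence was at hand from RefSeq (GRCm38.p6) for 6 of the 8 genes, with 9 start sites. Entries for Zic2 and Nfib were not among them. The stretch before the Zic1 start is shown because Zic1 was the most abundant member and its stretch had the most CpG dinucleotides of the 9. That before the Zic5 start is shown because it alone held TTGGCA, the form of the NFI half-site searched. The first 5 letters of TTGGCA also stand in the Zic1 stretch. Both stretches are cut where an annotated exon begins and run 5′ to 3′ on the strand of the gene. Capitals mark CpG in Zic1 and the half-site in Zic5.
Zic1, chr9:91365811-91366018, minus strand: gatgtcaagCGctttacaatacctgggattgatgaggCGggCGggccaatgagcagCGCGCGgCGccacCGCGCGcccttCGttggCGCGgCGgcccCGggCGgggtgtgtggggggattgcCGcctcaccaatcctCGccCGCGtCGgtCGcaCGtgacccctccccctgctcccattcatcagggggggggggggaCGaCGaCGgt
Zic5, chr14:122465678-122465908, minus strand: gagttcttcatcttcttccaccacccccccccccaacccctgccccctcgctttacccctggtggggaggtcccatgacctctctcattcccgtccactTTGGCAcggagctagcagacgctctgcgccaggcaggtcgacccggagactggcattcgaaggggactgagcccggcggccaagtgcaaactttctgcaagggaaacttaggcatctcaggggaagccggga
The full 250 bases before the start held 27 CpG for Zic1 and 19 for Nfic, against a median of 6 and an upper quartile of 16 over 32851 RefSeq start sites. Of 3 motifs searched on both strands, the ZIC motif CCTGCTG was in 0 of the 9 stretches and in 8.44% of all. The NFI palindrome (TTGGC, 5 bases of any kind, GCCAA) was in 0 of the 9 and in 0.0365% of all, and the half-site TTGGCA, whose first 5 letters are also the left arm of the palindrome, was in 1 of the 9 and in 12.3% of all. These are matches of letters and not binding sites.

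Per length of exon, the WT tissue held far more Zic1 and Zic2 than any other member. On the scale of CPM per kb of annotated exon, Zic1 was at 228 and 248 in the WT libraries and Zic2 at 152 and 171. Zic1 was rank 77 and Zic2 rank 140 of the 16617 tested genes on this scale, and Zic1 alone took 0.134% of all WT counts. Nfix followed at 72.2 and 83.3, Nfic at 36.9 and 40.1, and Nfib at 27.2 and 28.6. Zic4 lay at 24.4 and 26.6, Zic5 at 22.5 and 25.3, and Nfia at 15.7 and 18.4. In this order the only neighbors whose WT libraries overlapped were Zic4 and Zic5. In cKO, Nfib at 34.7 and 38.0 overlapped Nfic at 35.1 and 33.7, so the gap between that pair was no longer seen, and Zic4 and Zic5 overlapped again. The middle of the order depends on the length used, since Zic4 and Nfib each have 12 annotated transcripts. Their annotated exons cover 10335 bp and 14957 bp, while their longest transcripts have 3891 bp and 9116 bp. By the longest transcript Zic4 moved from rank 6 to rank 4 and Nfic from rank 4 to rank 6, with Nfib at rank 5. Nfic thus lay above Nfib in WT by exon length but not by the longest transcript.

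**Figure D1:**
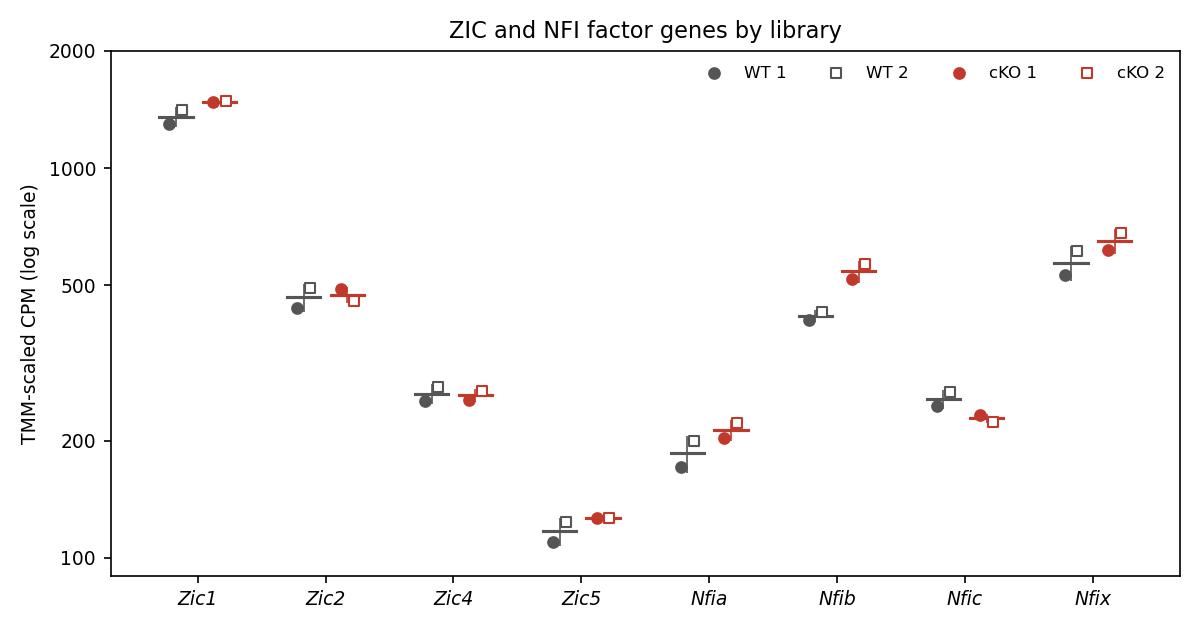
CPM (log axis) of each of the 8 genes in the 4 libraries; points are libraries, horizontal lines group means and vertical lines ± SD (n = 2). Both cKO points of Nfib, at 518 and 569 CPM, lie above both WT points, and Nfic is the only gene with both cKO points below both WT points.

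Nfib was the member that rose. NFIB is needed for lung maturation and for forebrain tracts, and acts with NFIA and NFIX in granule neurons. The study counted Nfib among the early genes of CGNs grown in culture. Nfib was at 407 and 428 CPM in the 2 WT mice, compared with 518 and 569 CPM in the cKO mice, means of 418 ± 15.5 and 543 ± 35.5 (SD, n = 2 each). Both cKO libraries were above both WT libraries, by 30.1% on average. The log2 fold change was 0.38 (SE 0.072, 95% interval 0.23 to 0.53, edgeR adjusted p = 0.00322), rank 166 of all tested genes by p. Of the 8 members, 1 was called higher and 0 lower, where 1.87% of all tested genes were called higher and 2.17% lower. At an unadjusted p under 0.05 there were 4 members (Nfia, Nfib, Nfic and Nfix) and 16.3% of all tested genes. The rise was at an adjusted p of 0.0284 without WT 1 and 0.00185 without WT 2, and did not pass without cKO 1 (log2 fold change 0.45, adjusted p = 0.272) or without cKO 2 (0.31, adjusted p = 0.493). In those last 2 fits no gene of the table passed by edgeR, although 2315 and 1718 genes had an unadjusted p under 0.05.

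Nfia and Nfix, the other NFI genes with known parts in granule neuron maturation, had higher means in cKO but did not pass. Nfia was at 171 and 199.9 CPM in the 2 WT mice, compared with 203 and 221 CPM in the cKO mice. Nfix was at 531 and 612 CPM in the 2 WT mice, compared with 616 and 683 CPM in the cKO mice. For both genes the groups did not overlap, but the distance between WT 2 and cKO 1 was small beside the distance between the WT libraries. The log2 fold change of Nfia was 0.20 (95% interval 0.028 to 0.362, edgeR adjusted p = 0.214) and that of Nfix 0.18 (95% interval 0.020 to 0.347, adjusted p = 0.238). With the replicate number as a block Nfia passed (log2 fold change 0.20, adjusted p = 0.0484), in a fit that called 3.30% of all tested genes higher, and without WT 1 the values were 0.087 for Nfia (adjusted p = 0.892) and 0.085 for Nfix (adjusted p = 0.852).

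Nfic was the only member that lay lower in cKO in both libraries. NFIC is best known for its role in tooth root formation. Nfic was at 245 and 266 CPM in the 2 WT mice, compared with 232 and 223 CPM in the cKO mice, so the groups were apart by less than the WT libraries were from each other. Its log2 fold change was −0.16 (95% interval −0.310 to −0.018, edgeR adjusted p = 0.237), and it was below 0 under all 12 alternatives run, from −0.22 to −0.10, without passing in any.

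The ZIC genes showed no called change. Zic1, whose loss together with Zic4 leaves mice with a small cerebellum, was at 1298 and 1413 CPM in the 2 WT mice, compared with 1476 and 1483 CPM in the cKO mice, and Zic5, known from neural tube closure and neural crest, was at 109.9 and 124 CPM in the 2 WT mice, compared with 126.7 and 126.8 CPM in the cKO mice. Both had cKO libraries above the WT libraries, with log2 fold changes of 0.13 (95% interval −0.012 to 0.265, edgeR adjusted p = 0.366) and 0.12 (95% interval −0.050 to 0.284, adjusted p = 0.517). Zic2, the gene behind a form of holoprosencephaly, was at 438 and 494 CPM in the 2 WT mice, compared with 489 and 457 CPM in the cKO mice. Zic4 was at 252 and 275 CPM in the 2 WT mice, compared with 254 and 269 CPM in the cKO mice. In these 2 genes the cKO libraries lay between the WT libraries. The log2 fold change of Zic2 was 0.020 (95% interval −0.134 to 0.175, edgeR adjusted p = 0.936) and that of Zic4 −0.013 (95% interval −0.160 to 0.133, adjusted p = 0.959), and the sign of both turned when single libraries were left out.

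**Figure D2:**
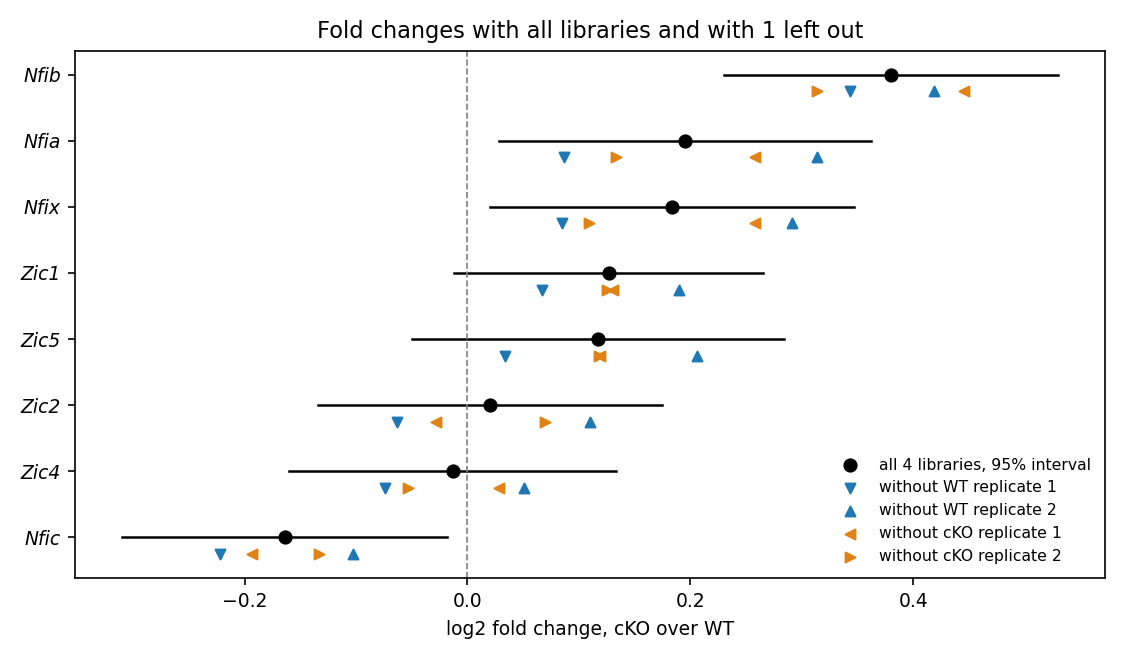
Log2 fold change (cKO over WT) of the 8 genes with the 95% interval of the edgeR fit on all 4 libraries, and the value with each library left out. Only Nfib lies above 0.3 in the full fit and in each fit with 1 library left out, where it ran from 0.31 to 0.45.

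WT 1 set much of the spread. All 8 members were higher in WT 2 than in WT 1, as were 50.6% of all tested genes, and 7 of the 8 (all but Nfic) had their lowest value in WT 1, as did 25.7% of all tested genes. Both cKO libraries were beyond both WT libraries for 5 members upward and 1 downward, while among all tested genes this held for 23.2% upward and 23.2% downward. WT 1 was also the library that differed in Xist and the Y-linked genes. Sex and genotype cannot be told apart for a difference that rests on WT 1. Without WT 1 only 1 WT library remained, and the log2 fold change of Nfib was 0.343. Whether sex had a part in the values of any member was not tested.

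**Figure D3:**
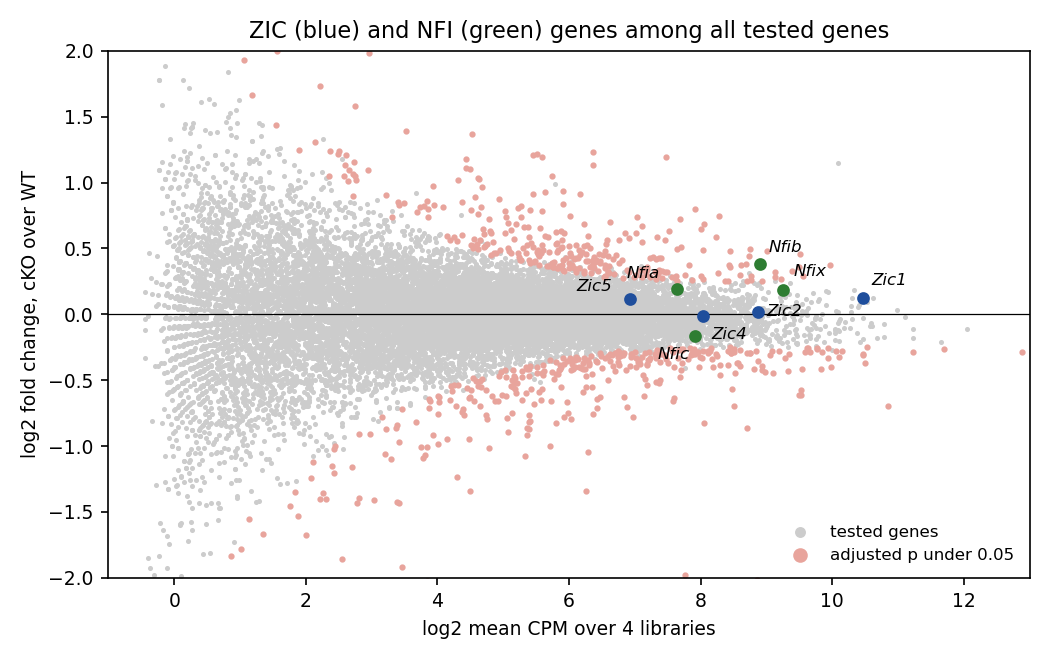
Log2 fold change (cKO over WT) against mean level in log2 CPM for all tested genes (gray, with 37 beyond ±2 not shown) and the 8 named members. The members are among the more abundant genes, and Nfib lies highest of them at 0.38.

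Within the NFI family, Nfib made up a larger and Nfic a smaller share of the message in both cKO libraries than in both WT libraries. Summed CPM per kb of the 4 NFI genes was 152 and 170.4 in WT and 172 and 185 in cKO, 1.11 times higher (exact permutation test, two-sided p = 0.333, the smallest that 2 libraries against 2 can give, so no comparison of this kind can pass). Of this sum Nfib took 17.9% and 16.8% in WT and 20.1% and 20.6% in cKO. Nfic took 24.3% and 23.5% in WT and 20.4% and 18.2% in cKO. The mean Nfib share was 3.0 percentage points higher in cKO and that of Nfic differed by −4.62 points, each at the same smallest possible p of the exact permutation test (0.333). Nfix made up 47.5% to 50.3% of the sum and Nfia 10.3% to 11% in the 4 libraries. The ratio of Nfib to Nfic counts, which needs no scaling between libraries, was 0.73 and 0.69 on the log2 scale in WT and 1.16 and 1.35 in cKO, whereas that of Nfia to Nfix stayed between −1.64 and −1.60. These 2 pairs were named after their values were seen.

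The 4 ZIC genes summed to 427 and 472 CPM per kb in WT and to 479 and 471 in cKO, so the groups overlapped (1.06 times, exact permutation test, two-sided p = 0.667). Zic1 made up 53.4% and 52.6% of the sum in WT and 54.1% and 55.3% in cKO, and Zic2 35.6% and 36.4% in WT and 35.4% and 33.7% in cKO. Zic4 took 5.72% and 5.64% in WT and 5.12% and 5.52% in cKO, and Zic5 5.26% and 5.37% in WT and 5.41% and 5.51% in cKO. The genotypes were thus apart for all 4 shares, higher in cKO for Zic1 and Zic5 and lower for Zic2 and Zic4. The exact permutation p was 0.333 each, the same as for Nfib and Nfic, and the differences were 0.138 to 1.69 percentage points in size. Shares of a family add up to the whole, so these are not 4 separate results. In CPM, 23.2% of all tested genes were apart upward and 23.2% downward. For the overlapping pair, the log2 ratio of Zic1 to Zic4 counts was 2.36 and 2.36 in WT and 2.54 and 2.46 in cKO, a difference of 0.14 with the groups apart (exact permutation p = 0.333).

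**Figure D4:**
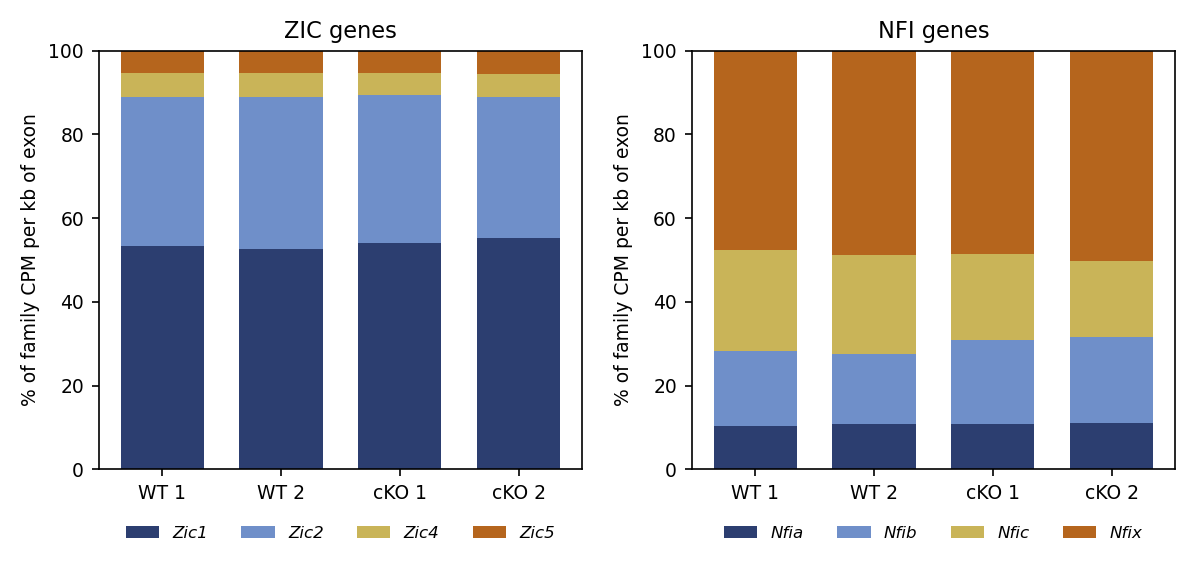
Share of each gene (%) in the summed CPM per kb of exon of its family, 1 bar per library. In the NFI panel the Nfib share is 17.9% and 16.8% in WT and 20.1% and 20.6% in cKO, and the ZIC shares differ between the genotypes by at most 1.69 percentage points.

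None of the tested genes next to a member, or with exons overlapping one, passed the test. Around Nfib, Zdhhc21 was at 97.3 and 94.8 CPM in the 2 WT mice, compared with 101.1 and 96 CPM in the cKO mice (edgeR adjusted p = 0.876), and Mpdz had an adjusted p of 0.955. The overlapping antisense gene of Nfic, Gm16104, was at 18.3 and 22.4 CPM in the 2 WT mice, compared with 17.8 and 16 CPM in the cKO mice (adjusted p = 0.438). The genes most like Nfib across the 4 libraries, by the root mean square distance of centered log2 CPM, were Nog (0.014), Kcna4 (0.014) and Cntn2 (0.019). Nog, an antagonist of BMP signals, was at 3.99 and 4.32 CPM in the 2 WT mice, compared with 5.34 and 5.94 CPM in the cKO mice. Kcna4, which encodes a potassium channel, had 4.53 and 4.86 CPM in the WT mice and 5.95 and 6.72 CPM in cKO, and neither it (edgeR adjusted p = 0.465) nor Nog (adjusted p = 0.489) passed. Cntn2, an adhesion molecule of young granule neurons, rose from 609 and 658 CPM to 780.4 and 843 CPM (log2 fold change 0.36, adjusted p = 0.00563). In all, 793 genes lay within a distance of 0.1, so many genes share such a pattern over 4 points.

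Of the genes studied as markers of maturation together with NFI factors, 6 had a log2 fold change below 0 and 1 above, and not all passed. Of 7 tested, Gabra6 fell from 591 and 570.1 CPM to 447 and 409 CPM (log2 fold change −0.44, edgeR adjusted p = 7.76e-04). The transcription factor gene Etv1 fell by 0.43 on the log2 scale (adjusted p = 0.00162) and the glutamate receptor subunit gene Grin2c by 0.38 (adjusted p = 0.0262), while Cntn2, a gene of the stage before, rose as given above. Efnb1, Cdh2 and Wnt7a did not pass (adjusted p from 0.417 to 0.956). The list thus had 1 gene higher and 3 lower, with a median of −0.26 against 0.0036 over all tested genes.

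Of 21 other transcription factor genes of the granule lineage, 7 rose and 2 fell, with a median of 0.21 that was 0.059 without cKO 2 and 0.115 without WT 2. The 7 rising genes became 2 with DESeq2 and 2 with no filter on low counts. Sox11, a factor of newly made neurons, was at 47.6 and 55.4 CPM in the 2 WT mice, compared with 95 and 132 CPM in the cKO mice (log2 fold change 1.13, edgeR adjusted p = 5.07e-06), and Sox4, Nhlh1, Nhlh2, Insm1, Barhl1 and Pax6 also rose. En1, which patterns the midbrain and cerebellum, was at 11.5 and 14 CPM in the 2 WT mice, compared with 0.605 and 0.896 CPM in the cKO mice (log2 fold change −4.08, adjusted p = 1.57e-07), and Etv1 was the other that fell. Neurod1, at 579 to 648 CPM in the 4 libraries, did not pass (adjusted p = 0.721). Of the GLI and GLIS genes, the nearest relatives of the ZIC family, 0 of 5 tested passed, with a median of −0.12 and 16.4 CPM or less for Gli1 in cKO. Without WT 2 that median was −0.42, and 1 of these genes was called lower.

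Stage and cell type markers moved with genotype beside the members. Of newly postmitotic neuron markers 8 of 10 rose and 0 fell, with a median of 0.62, and their summed level was 1558 and 1691 CPM in WT and 2068 and 2570 CPM in cKO. Of mature granule neuron markers 0 of 10 rose and 8 fell, with a median of −0.41, from 5581 and 5780 CPM to 4630 and 4097 CPM. Of granule progenitor markers 5 of 9 rose, led by Barhl1 and Ccnd2, with summed levels of 213 and 244 CPM in the WT mice, 286 CPM in cKO 1 and 423 CPM in cKO 2. Their median of 0.93 was 0.23 without cKO 2, and the 5 calls became 0 with DESeq2 and 2 with no filter on low counts. Atoh1, their defining gene, was at 0.431 and 0.756 CPM in the 2 WT mice, compared with 0.504 and 2.02 CPM in the cKO mice, too low to test. None of the marker calls of this paragraph passed without cKO 1 or without cKO 2, and the 8 rising young neuron and 8 falling mature markers became 5 and 6 with DESeq2 and 4 and 4 with no filter. Nfib moved in the direction of the young neuron markers, and whether a changed share of young neurons carried it was not tested.

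NFI genes are also made in glia and ZIC genes in the meninges, so the markers of those cells are set beside them. The summed Bergmann glia and astrocyte markers were at 4351 and 4294 CPM in the 2 WT mice, compared with 3899 and 3837 CPM in the cKO mice, with 1 of 10 higher (Fabp7) and 4 lower. Their median log2 fold change was 0.062, with 6 above 0 and 4 below, so that the sum, to which Slc1a3 and Slc1a2 gave the most, and the median differ in sign, and without WT 1 the 4 lower calls became 0. The meninges, fibroblast and mural markers summed to 390 and 426 CPM in WT and 415 and 440 CPM in cKO, with 1 of 10 higher (Acta2, log2 fold change 0.90, edgeR adjusted p = 0.0478) and 0 lower. Oligodendrocyte lineage markers had 0 higher and 2 lower of 10, and Purkinje cell markers 1 higher and 1 lower of 10. Interneuron markers had 0 of 10 and microglia markers 0 of 9 called in either direction. The log2 fold changes of all 10 interneuron markers were below 0 (median −0.15). Of Purkinje cell markers 8 were below 0 and 2 above (median −0.13), of oligodendrocyte lineage markers 6 and 4 (−0.097), and of microglia markers 3 and 6 (0.044). Choroid plexus markers had 4 of 8 higher, through cKO 1, where they summed to 1139 CPM against 207 to 225 CPM in the other 3 libraries. The part of these cell types in the values of the members was not tested.

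Genes whose promoters gained ZIC binding as the cerebellum matured were examined next, beside the ZIC genes themselves, none of which was called. The lists rest on ChIP-seq of H3K27me3 and of ZIC1/2 in libraries other than these 4 and hold none of the 8 members. Of promoters that lost H3K27me3 with age and gained ZIC binding, 703 genes were tested, of which 3 (0.427%) were called higher and 102 (14.5%) lower, beside 1.87% and 2.17% of all tested genes. Their median log2 fold change was −0.15, with 183 above 0 and 520 below. The 102 lower calls became 58 with DESeq2 and 32 with no filter on low counts. Car4, a carbonic anhydrase gene, was the clearest, at 114 and 106 CPM in the 2 WT mice, compared with 49.1 and 37.8 CPM in the cKO mice (log2 fold change −1.34, edgeR adjusted p = 4.82e-08). Kndc1, which acts in dendrite growth, was at 448 and 453 CPM in the 2 WT mice, compared with 293 and 264 CPM in the cKO mice (−0.69, adjusted p = 5.07e-06).

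Promoters that lost H3K27me3 with age without gaining ZIC binding gave 3 higher (0.800%) and 15 lower (4.0%) of 375 tested genes, with a median of −0.040. The 15 lower calls became 8 without WT 1. Abi3 and Eomes, the latter a marker of unipolar brush cells, were the most clearly lower of these, at −1.01 (edgeR adjusted p = 8.14e-05) and −0.91 (adjusted p = 8.27e-04). The lists differ in how well they could be measured: the tested genes of the first had a median of 48.9 CPM, those of the second 15.3 CPM and all tested genes 22.2 CPM, and under 1 CPM in every library were 29 genes of the first and 186 of the second. They also differ in kind of gene: the study found neuronal terms enriched in the first and general cell-fate terms in the second. ZIC binding and kind of gene therefore cannot be told apart here. The difference between the lists was not tested.

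Promoters that gained H3K27me3 in cKO were drawn from the same genotypes, so their list is not independent of direction. It also shares genes with the promoters that lost the mark with age, so the results are not separate. The study gives Grin2c and Grm4 as examples of both. Of promoters that gained the mark in cKO and ZIC binding with age, 102 genes were tested. Of these 1 was higher (0.980%) and 30 lower (29.4%), with a median of −0.22. The 30 lower calls became 18 without WT 1, 17 without WT 2 and 0 without either cKO library. Grm4, the metabotropic glutamate receptor gene of mature granule neurons, was at 840.2 and 939 CPM in the 2 WT mice, compared with 595 and 572 CPM in the cKO mice (log2 fold change −0.61, edgeR adjusted p = 2.82e-05). Bcl6, a transcriptional repressor gene, was at 53.9 and 54.6 CPM in the 2 WT mice, compared with 33.3 and 28.6 CPM in the cKO mice (−0.81, adjusted p = 1.35e-04). Without ZIC binding gained, 2 of 39 tested genes were higher and 1 was lower, with a median of −0.023, and the called genes included Fbn1 at 0.585 (adjusted p = 0.00255) and Cdkn1a at −0.34 (adjusted p = 0.0404). With 1 library left out the median of the first ZIC list stayed between −0.19 and −0.11, and the count of genes called lower in it was 61 without WT 1, 62 without WT 2 and 0 without cKO 1 or cKO 2, as for all genes.

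**Figure D5:**
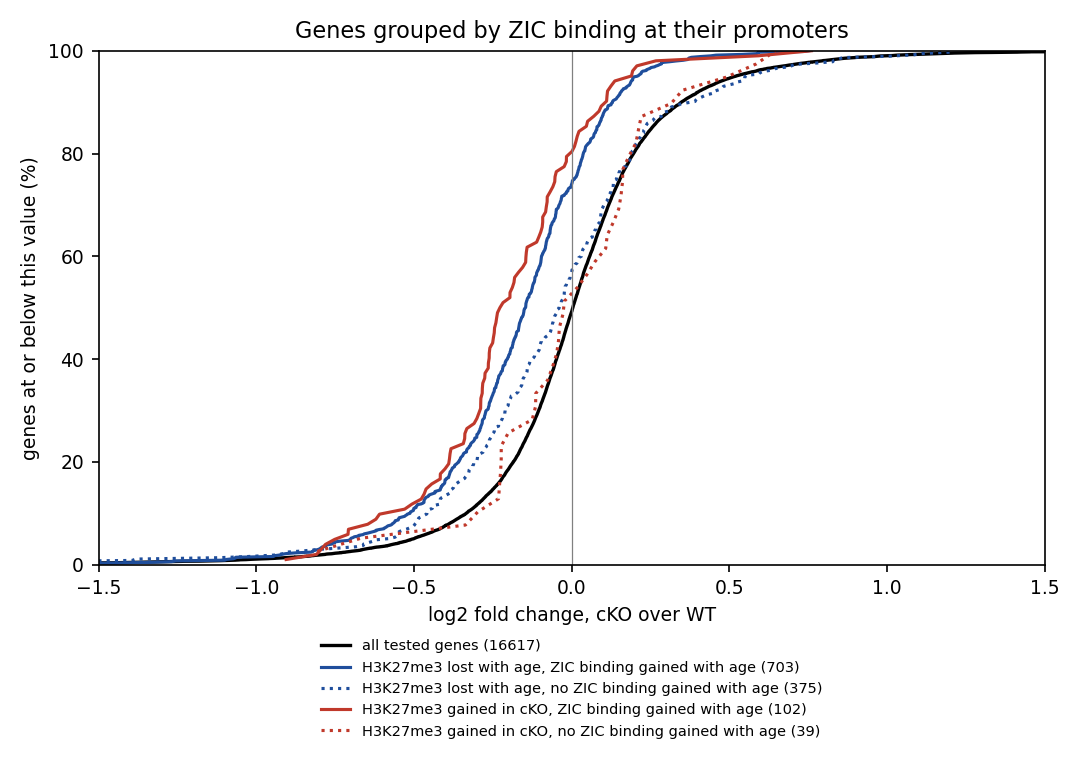
Percent of genes at or below each log2 fold change (cKO over WT) for all tested genes and for genes grouped by H3K27me3 and ZIC binding at their promoters in other libraries of the study. Both solid curves, of genes with ZIC binding gained (medians −0.15 and −0.22), lie to the left of the curve of all genes (median 0.0036). The lists behind them share genes.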

How the data were processed

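RNA-seq of 2 WT and 2 Kdm6b-cKO cerebella was used. Per the methods and processing notes, the authors used Trimmomatic 0.38 for trimming and STAR 2.7.2b for alignment to GRCm38, and deposited unnormalised HTSeq counts per gene symbol; the strand setting is not given in the sources used here. Groups and replicate numbers came from sample titles, and the libraries of a group were not repeats of one another (chi-square over degrees of freedom 3.51 in WT, 3.82 in cKO). Of all entries 39.0% to 40.5% were in genes and 48.8% to 49.6% fell in no annotated feature. Entries naming no gene were left out.

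All tables were fitted whole with edgeR 4.0.16 in R 4.3.3 (TMM factors 0.986 to 1.02, filterByExpr, two-sided quasi-likelihood test, Benjamini-Hochberg threshold 0.05). The fits were tested on simulated counts. CPM used TMM scaling, and levels between genes used GENCODE M21 exon length. The members and lists were chosen with earlier results of these data known. Named genes were the members, Kdm6b, neighboring and overlapping genes, up to 2 genes per list with the smallest p, and the 3 genes most like Nfib; others named were chosen after their values were seen, and some items this rule takes are not reported here. Alternatives covered scaling, filters, DESeq2 1.42.0, limma-voom of limma 3.58.1, a replicate block and each library left out; a lone library was taken to vary as the other group did.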

Additional observations from a re-analysis of the deposited data

How the results depend on the processing

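Nfib passed in 10 of 12 alternatives, with log2 fold changes from 0.31 to 0.45; it missed the threshold without cKO 1 (0.446) and without cKO 2 (0.314), which leave 3 libraries. Members called higher numbered 0 to 1 with 1 library left out. The sign of Zic2 turned without WT 1 (−0.063) and without cKO 1 (−0.028), with a range up to 0.11, and that of Zic4 without WT 2 (0.051), without cKO 1 (0.028) and with library size alone (0.017), with a range down to −0.074. Zic1, Zic5, Nfia, Nfix and Nfic kept their direction in all 12. The causes were not tested.

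Titles give both groups the numbers 1 and 2, but the deviations of same-numbered libraries correlated at 0.0429, so the numbers were not taken to pair animals. With a replicate block 2 members were called higher, Nfia (0.198) among them, and 549 and 581 of all tested genes were called higher and lower. Genes called higher numbered 310 with all libraries, 71 with no filter, 137 with DESeq2 and 0 to 263 with 1 library left out; genes called lower numbered 361, 106, 183 and 0 to 244. With library size alone the split was 434 higher to 292 lower. List genes called higher numbered 29, then 9 with no filter, 11 with DESeq2 and 0 to 28 with 1 left out, and those called lower 132, then 44, 76 and 0 to 83. By the longest transcript the Zic4 share changed by −0.729 percentage points, and the ranks were 4 for Zic4 and 6 for Nfic. Library size alone moved the median of all genes by 0.030. With 2 animals a group, p-values rest on these 4 libraries alone. In edgeR the variance of each gene was drawn toward a trend over all tested genes.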
